A study of Mus musculus with 6 samples.

Results

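Olig1, Olig2, Sox10, Tcf7l2 and Nkx2-2 are 5 transcription factors of the oligodendrocyte lineage, and every deposited transcript assigned to one of these gene names was taken. They gave 69 of the 36303 transcripts that were assigned to a single gene, from 4 of the 5 genes, among 6357 genes named. The data came from 6 single cells of CD-1 mouse brain whose amplified cDNA was read on the PacBio instrument, which reads a cDNA molecule from end to end. A transcript here stands for all reads of a cell and gene that carry 1 unique molecular identifier (UMI, a random tag of 6 bases added to the 5′ end of each cDNA before amplification).

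The labels give all 6 cells the developmental stage Embryo and name 2 of them as Oligo1, 2 as Oligo5 and 2 as Oligodendrocyte progenitor cell. Oligo1 is described by the study as an immature and Oligo5 as a mature myelinating oligodendrocyte, and the cells labelled as progenitors are called vascular and leptomeningeal cells (VLMCs) by it. The name VLMC is used below. The text of the study gives no age for the cells, so the stage Embryo rests on the labels alone. It stands beside the description of Oligo5 as mature and myelinating. No treatment or mutation was given for any cell, and the labels do not say which animals the cells came from. Cells of 1 kind were therefore treated as single observations, no test was run between kinds, and the intervals given are 95% intervals (Wilson for shares, exact Poisson for counts) that cover counting error only.

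VLMC-1 held the fewest transcripts, 2338, and Oligo1-1 the most, 11483, and the 6 cells shared no barcode. With the limit for a count of 0 set at 3 counts, a gene that was not found may take up to 0.0261% of the transcripts of Oligo1-1, 0.0496% of those of Oligo1-2, 0.0509% and 0.0483% of those of Oligo5-1 and Oligo5-2, and 0.128% and 0.0640% of those of VLMC-1 and VLMC-2. Markers of oligodendrocytes took 9.68% to 14.3% of transcripts in the 4 oligodendrocytes and had none in the VLMCs, while 10 of 10 VLMC markers were found in the VLMCs and 9 of them there alone. The exception was Apod, a lipocalin, with 60 and 71 transcripts in Oligo5-1 and Oligo5-2, or 1.02% and 1.14% of their transcripts. Of 10 markers of oligodendrocyte progenitors the VLMCs had Pdgfra alone, a growth factor receptor that mesenchymal cells carry as well, with 8 transcripts. The others of the list, Cspg4 and Gpr17 among them, had 0 there. Only 2 of the 10 were found in any cell, Pdgfra and Gpr17, the latter with 4 transcripts, all in Oligo1-1. The oligodendrocytes shared most of these counts of 0. No cell was both labelled and described as a progenitor, so the counts that a progenitor would give at this depth are not known. Oligo5-2 differed from the other oligodendrocytes in that it held transcripts of 6 of 8 neuronal markers, 53 in all or 0.853% of its transcripts. It also held 17 transcripts of Slc1a2, a glutamate transporter and the only 1 of 8 astrocyte markers found in that cell. Oligo1-1, Oligo1-2 and Oligo5-1 had 0 neuronal marker transcripts, but Oligo5-1 had 4 transcripts of 3 of 6 endothelial markers. Oligo5-1 also had 4 of Slc1a3, another transporter of astrocytes, and Oligo1-1 had 3 of the astrocyte marker Aldoc. Each was again the only astrocyte marker found in its cell. The VLMCs held transcripts of 3 of the 8 astrocyte markers as well, among them 22 of the 26 transcripts of Slc1a3.

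Olig1 and Olig2 are basic helix-loop-helix proteins, Sox10 is a high mobility group protein that drives myelin genes together with Myrf, and Nkx2-2 is a homeodomain protein. Tcf7l2 is a high mobility group protein that binds β-catenin, the effector of Wnt signalling, and in oligodendrocytes it is known for a passing rise as progenitors start to differentiate. Olig2 and Sox10 mark the whole lineage, whereas Nkx2-2 is best known in progenitors and in cells that have just left that stage.

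Olig1 was the most often found of the 5 genes, with 52 transcripts in the oligodendrocytes and none in the VLMCs. Oligo1-1 had 26 transcripts (interval 17.0 to 38.1), Oligo1-2 had 17 (9.90 to 27.2), Oligo5-1 had 8 (3.45 to 15.8) and Oligo5-2 had 1 (0.0253 to 5.57). As shares of all transcripts in the cell these counts were 0.226% (0.155% to 0.332%), 0.281% (0.176% to 0.450%), 0.136% (0.0688% to 0.268%) and 0.0161% (0.00284% to 0.0911%). The order of the shares was therefore Oligo1-2, Oligo1-1, Oligo5-1 and Oligo5-2. The intervals of Oligo1-2, Oligo1-1 and Oligo5-1 overlapped one another, and that of Oligo5-2 lay below those of both Oligo1 cells. VLMC-1 and VLMC-2 had 0 transcripts of 7027 together, which allows a share of up to 0.0427%.

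In the Oligo1 cells Olig1 was among the genes with the most molecules. In Oligo1-1 only 38 of 2968 genes had more transcripts than Olig1, in Oligo1-2 31 of 2216 and in Oligo5-1 61 of 2114. In Oligo5-2, where it had 1 transcript, 979 of 2498 genes had more. Oligo5-2 was thus low for Olig1 in share and in rank, which both come from the same 1 transcript. Oligo5-2 is also the oligodendrocyte with the neuronal marker transcripts. Of all cells it had the largest part of its reads from the second sequencing run, described below. The part of either in the low share was not tested.

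Olig2 had 7 transcripts, all in the Oligo1 cells. Oligo1-1 had 5 transcripts (interval 1.62 to 11.7, a share of 0.0435%) and Oligo1-2 had 2 (0.242 to 7.22, a share of 0.0331%). Oligo5-1, Oligo5-2 and the VLMCs had none. Cell by cell, the limits for 0 in the Oligo5 cells, 0.0509% and 0.0483%, lie above both Oligo1 shares. Pooled, the Oligo1 cells had 7 of 17526 transcripts (0.0399%, 0.0193% to 0.0824%) and the Oligo5 cells 0 of 12106, which allows up to 0.0248%, a limit below the Oligo1 share but within its interval. The pooled interval takes no account of differences between cells. Of the 5 transcripts in Oligo1-1, 2 may be 1 molecule, as described below. The numbers of Olig1 and Olig2 transcripts read were 26 and 5 in Oligo1-1, 17 and 2 in Oligo1-2, 8 and 0 in Oligo5-1 and 1 and 0 in Oligo5-2. These are transcripts recovered, and the 2 sequencing runs recovered molecules of different length.

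Sox10 had 1 transcript in Oligo1-1 and 1 in Oligo5-1, shares of 0.00871% (0.00154% to 0.0493%) and 0.0170% (0.00299% to 0.0960%). Tcf7l2 had 3 transcripts in each Oligo1 cell and 2 in VLMC-2. Its shares in these cells were 0.0261% (0.00889% to 0.0768%), 0.0496% (0.0169% to 0.146%) and 0.0427% (0.0117% to 0.155%), and these intervals overlapped. Tcf7l2 was thus the one gene of the 5 found in a VLMC. Oligo5-1, Oligo5-2 and VLMC-1 had 0 Tcf7l2 transcripts, and their limits of 0.0509%, 0.0483% and 0.128% lie above the share of Oligo1-1, and all but that of Oligo5-2 above that of Oligo1-2. The Oligo1 cells together had 6 of 17526 (0.0342%, 0.0157% to 0.0747%), and the limit of 0.0248% for the Oligo5 cells together again lies below that share but within its interval.

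Nkx2-2 (chr2:147177546-147194243, minus strand, GRCm38) had no transcript in any cell. The 29632 transcripts of the 4 oligodendrocytes allow it a share of up to 0.0101% and the 36659 transcripts of all 6 cells a share of up to 0.00818%. The share of Olig1 in the 4 oligodendrocytes together, 0.175% (0.134% to 0.230%), lies above that limit, and so does the share of Olig2, 0.0236% (0.0114% to 0.0488%). The share of Tcf7l2, 0.0202% (0.00928% to 0.0442%), lies above it with an interval that reaches below, and that of Sox10, 0.00675% (0.00185% to 0.0246%), lies below it. The limit is not a Wilson bound. By the Wilson interval Nkx2-2 may take up to 0.0130% in the 4 oligodendrocytes, which overlaps the interval of Olig2 but not that of Olig1.

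**Figure D1:**
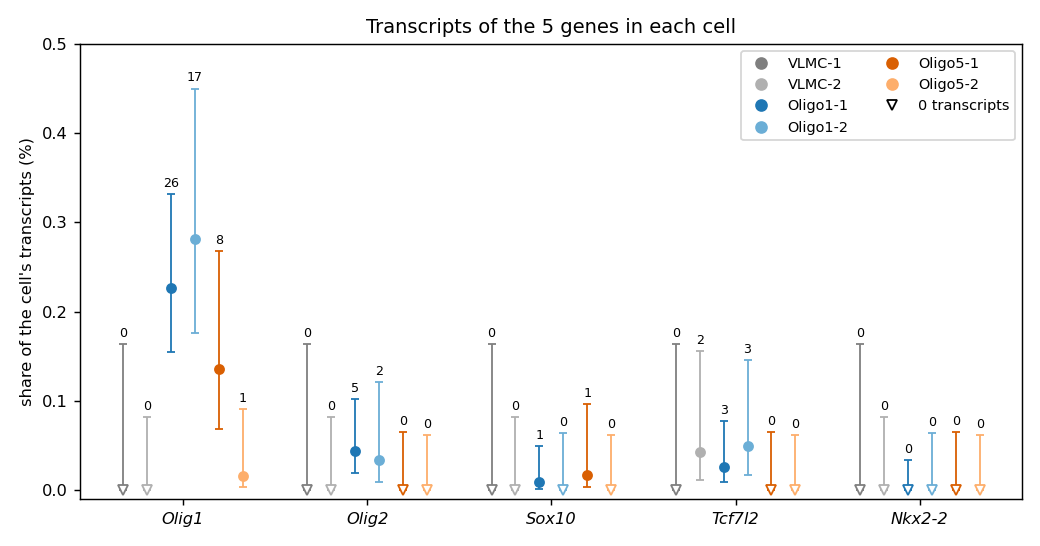
Share of the transcripts in each cell (vertical axis, in percent) that came from each of the 5 genes, with Wilson 95% intervals and the number of transcripts above each interval. Open triangles mark a count of 0. Olig1 stands above the other genes in Oligo1-1, Oligo1-2 and Oligo5-1, with 26, 17 and 8 transcripts.

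Olig1, Olig2 and Sox10, 3 of the 4 genes found, had transcripts in oligodendrocytes and none in the VLMCs. Over all genes this was no rare pattern, since 65.3% of 6357 had it, and 57.9% of those that, like these 4, had at least 2 transcripts. The VLMCs gave 19.2% of all transcripts, so a rare gene is often missing there. Of the 58 genes with at least as many transcripts as Olig1, 27 had none in the VLMCs.

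The cDNA was sequenced in 2 runs, and over the 4 oligodendrocytes together the 5 genes were less frequent in the second. The first run is called short and the second, made after a selection for longer molecules, long. In the 4 oligodendrocytes 62 of 20738 transcripts with a read of the short run came from the 5 genes, 0.299% (0.233% to 0.383%), against 8 of 12063 with a read of the long run, 0.0663% (0.0336% to 0.131%). By cell the short-run and long-run shares were 0.425% and 0.0905% in Oligo1-1, 0.442% and 0.0675% in Oligo1-2 and 0.175% and 0.0577% in Oligo5-1. Oligo5-2 did not show this, with 0 of 3326 in the short run and 1 of 3323 (0.0301%) in the long run. The median aligned length over all genes was 649 bp in the short run and 1730 bp in the long run, and 632 bp for the 69 transcripts described here. Within the short run the share of Olig1 was 0.302% in Oligo1-1, 0.342% in Oligo1-2 and 0.155% in Oligo5-1, and Oligo5-2 had 0 of 3326, which allows up to 0.0902%. These shares had the same order as those over both runs. Since 47 of the 52 Olig1 transcripts had a read of the short run, that order is no separate evidence. The short-run intervals of Oligo1-1 (0.199% to 0.456%), Oligo1-2 (0.214% to 0.547%) and Oligo5-1 (0.0788% to 0.306%) overlapped. The limit of Oligo5-2 lay below the intervals of both Oligo1 cells but within that of Oligo5-1. Within the long run Olig1 had 4, 0, 1 and 1 transcripts in Oligo1-1, Oligo1-2, Oligo5-1 and Oligo5-2, too few to order them. The long run gave 52.1% of the reads of Oligo5-2, the largest part in any cell. It gave 46.3% of those of Oligo1-1 and 25.8% of those of Oligo1-2, and its part was smallest in Oligo5-1. The part of the runs in the levels of the 5 genes was not tested.

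By the cosine of shares over the 6 cells, the 3 genes most like Olig1 among 149 with enough transcripts were Ubl3, Cldn11 and Tspan2. Ubl3, a membrane-anchored ubiquitin-like protein, had 27, 19, 9 and 1 transcripts in Oligo1-1, Oligo1-2, Oligo5-1 and Oligo5-2 and none in the VLMCs, with a cosine of 0.999. Cldn11, the tight junction protein of myelin, had 43, 35, 18 and 4 (cosine 0.993), and Tspan2, a tetraspanin of oligodendrocytes, had 82, 43, 16 and 2 (0.990). The genes were chosen for their likeness over these same 6 cells, each a library of its own depth, so the shared pattern is a description.

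The Olig1 gene (ENSMUSG00000046160.6) lies at chr16:91269772-91271933 on the plus strand of GRCm38 and has 1 annotated exon of 2162 bp with 780 bp of coding sequence. Its neighbour Olig2 ends 41094 bp upstream on the same strand. None of the 52 Olig1 transcripts began at the annotated start. The most 5′ transcript, in Oligo1-1, began 185 bp downstream of it and thus past the start codon. The starts lay 185 to 1894 bp downstream in Oligo1-1 (median 1337), 955 to 1908 in Oligo1-2 (median 1529) and 768 to 1890 in Oligo5-1 (median 1582.5), and the transcript of Oligo5-2 began at 1341. The ranges overlapped between the cells, and the aligned lengths ran from 251 to 1553 bp with a median of 654.5.

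Because of this, the Olig1 transcripts said little about the coding sequence. The start codon was in 0 of 52 transcripts (up to 6.88%), the stop codon in 7 (13.5%, 6.68% to 25.3%) and any coding base in 8 (15.4%, 8.01% to 27.5%). Of these 8 transcripts 7 were in Oligo1-1 and 1 in Oligo5-1. The other 44 lay in the 3′ untranslated region alone. The distance from start to annotated start was like that of the other genes with 1 annotated exon: their median was 1490.5 bp over 302 transcripts of 93 genes, against 1486.5 bp for Olig1. Of these transcripts 41 (13.6%, 10.2% to 17.9%) began within 100 bp of an annotated start, and of all transcripts with a matched gene 36.0%, against 0 of 52 for Olig1. The interval takes no account of transcripts that share a gene. Among the other genes with 1 exon, those with 22 and 19 transcripts also had 0% there. A gene with 20 transcripts had 10% and 1 with 12 had 25%, so a share of 0 was not particular to Olig1.

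The starts of Olig1 did not gather at 1 place. With starts within 5 bp joined there were 36 sites, 26 of them with 1 transcript. Of the 10 others, 5 held transcripts of more than 1 cell, 16 transcripts in all, and the largest held 4. The 3 bases in front of the start were GGG in 1 of 52 transcripts, and in 2.55% of the 1724 positions between the first and the last start. Sites in several cells at 1744 to 1748, 1792 to 1796 and 1890 to 1894 bp from the annotated start had 4, 4 and 3 transcripts. The sites at 1744 to 1748 and 1792 to 1796 each hold a pair of Oligo1-1 transcripts with nearly the same UMI. The UMIs of the pairs differ by 1 base or by a shift of 1 base, and their starts and ends by at most 1 bp. Each pair may be 1 molecule, so the counts of 4 may be too high.

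**Figure D2:**
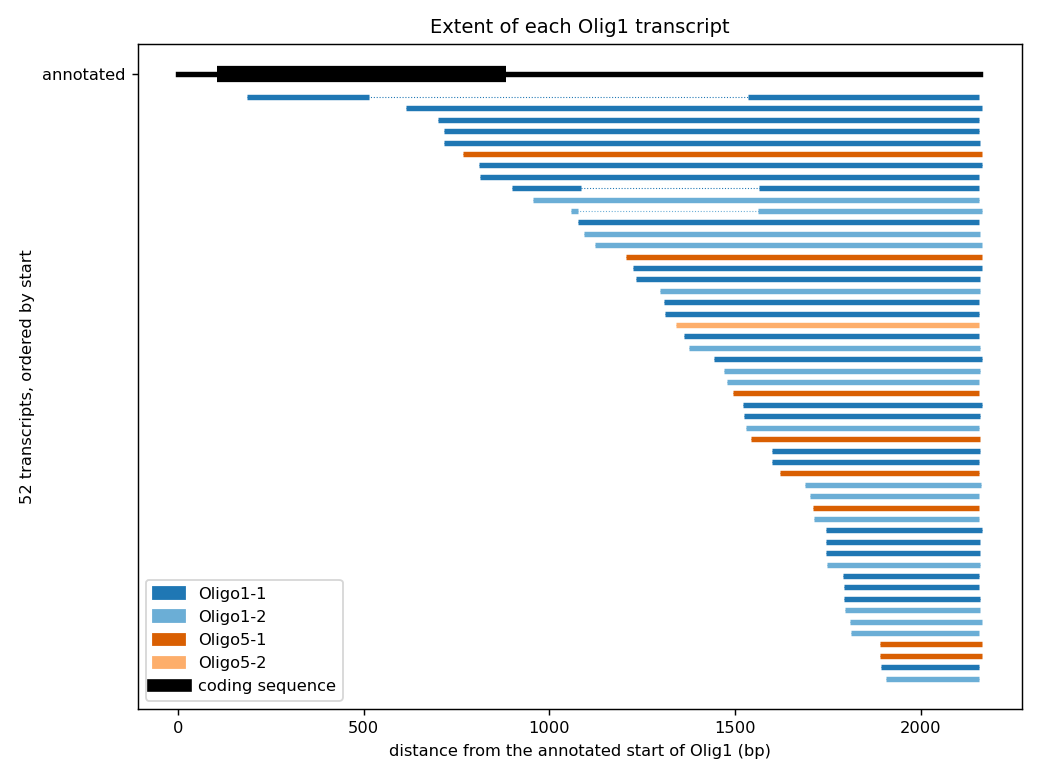
Each line is 1 of the 52 Olig1 transcripts, drawn as distance from the annotated start in bp, ordered by start and coloured by cell, with gaps in the alignment dotted. The annotated exon is on top with the coding sequence thick, and the transcripts share their 3′ end while their starts run from 185 to 1908 bp.

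At the 3′ end, all 52 Olig1 transcripts lay within 5 bp of the annotated end, in contrast to the scattered starts. The most common end, 3 bp before the GENCODE end, was found in 21 transcripts of all 4 oligodendrocytes. The ends fell into 2 main groups: 37 transcripts (71.2%, 57.7% to 81.7%) ended 4 to 2 bp before the GENCODE end, 13 (25.0%, 15.2% to 38.2%) ended 3 to 5 bp past it, and 2 lay between. Relative to the RefSeq end the groups lay 10 to 8 bp and 3 to 1 bp upstream. The downstream group held 6 of 26 transcripts in Oligo1-1, 3 of 17 in Oligo1-2 and 4 of 8 in Oligo5-1, with overlapping intervals (11.0% to 42.1%, 6.19% to 41.0% and 21.5% to 78.5%). Both groups share 1 poly(A) signal, the motif that directs cleavage of the RNA, given in capitals in the 30 bases that end at the most common end site and, for comparison, at the ends of Olig2 and Sox10:
Olig1, end chr16:91271930: cagaaatcacaaAATAAAacgtcaacagtt
Olig2, end chr16:91228677: tgttgagattttaAATAAAatttaaagcaa
Sox10, end chr15:79154925: gtAATAAAatcaatgcttctggttgcctgc
The signal ended 12, 11 and 22 bases before these ends. AATAAA or its variant ATTAAA, searched on the transcript strand, is in the last 40 bases of 48.7% of the 58791 annotated coding transcripts of GENCODE M21. The sequences are those of GENCODE transcripts on GRCm38.

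**Figure D3:**
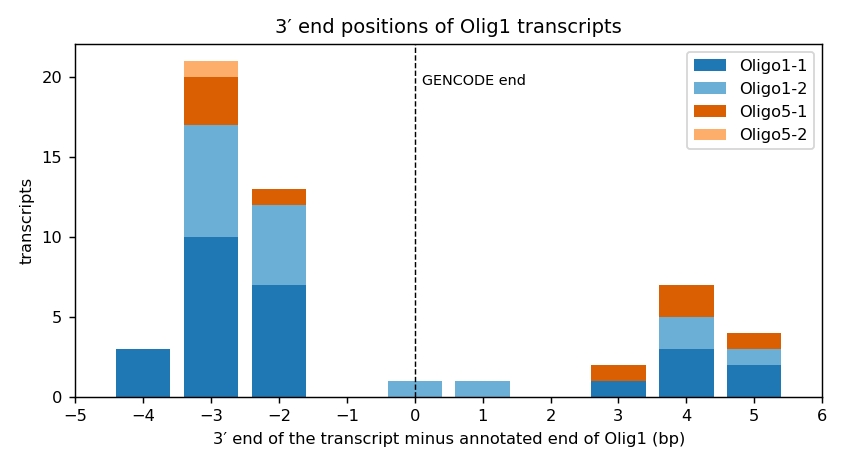
Number of Olig1 transcripts (vertical axis) by the distance of their 3′ end from the GENCODE end in bp (horizontal axis), stacked by cell. The ends form a larger group at 4 to 2 bp before the annotated end and a smaller one at 3 to 5 bp past it, with 37 and 13 transcripts.

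The Olig2 gene (ENSMUSG00000039830.9) lies at chr16:91225457-91228677, plus strand, with a noncoding exon 1 of 197 bp and an exon 2 of 2333 bp that holds the 969 coding bases. Of its 7 transcripts 5 lay in the 3′ untranslated region of exon 2 and 2 covered exon 1. All 7 ended within 3 bp of the annotated end, at chr16:91228674 to 91228679. The 5 short transcripts were 371 to 1033 bp long, and 2 of these in Oligo1-1, of 1033 and 1030 bp, began 3 bp apart, at 2188 and 2191 bp from the annotated start.

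Both Olig2 transcripts with exon 1 were in Oligo1-1, and both had exon 1 spliced to exon 2 at the annotated positions. They began 117 and 115 bp downstream of the annotated start and held the start codon, but lacked 958 bp inside exon 2, chr16:91226931-91227888. The gap takes 438 bases of the coding sequence together with the stop codon and the beginning of the 3′ untranslated region, so that 531 of 969 coding bases were left. The 2 transcripts had 2 reads each. Their UMIs were the same letters shifted by 1 base and their ends differed by 2 and 1 bp, so they may be counted as 1 molecule: merged on that ground, Olig2 had 6 transcripts in place of 7. The edges of the gap are shown with 8 missing bases in capitals at each side and the bases kept in lower case:
Olig2 gap, 5′ edge: agcgagatctacGGGGGTCA
Olig2 gap, 3′ edge: ACGCTGGCgtgggtatcaga
The missing part does not begin with GT and end with AG, the bases at the ends of most introns, at any of the placements that the alignment allows. A repeat of 2 bases, cg, stands at both edges.

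Gaps of this kind were also found in 3 of 52 Olig1 transcripts (5.77%, 1.98% to 15.6%). The most 5′ Olig1 transcript lacked 1021 bp, chr16:91270286-91271306, with 371 coding bases, and had 2 reads. The other 2 lay in the 3′ untranslated region, in different cells and at nearly the same place: Oligo1-1 lacked chr16:91270858-91271336 (479 bp) and Oligo1-2 lacked chr16:91270851-91271333 (483 bp), each in a transcript with 1 read. Their edges, with the missing bases in capitals, show how close they are:
Olig1 gap in Oligo1-1, 5′ edge: ccaaggagcgatGTAGTTGC
Olig1 gap in Oligo1-1, 3′ edge: TTGGGGATgcgaagtggaga
Olig1 gap in Oligo1-2, 5′ edge: gggtgttccaagGAGCGATG
Olig1 gap in Oligo1-2, 3′ edge: TGGTTGGGgatgcgaagtgg
The repeats at the edges of these 2 gaps are gatg (4 bases) and gga (3 bases), and the gap of 1021 bp has gc (2 bases). None of the gaps in Olig1, Olig2 or Tcf7l2 had GT and AG at its ends. Over all genes 2.24% (2.09% to 2.40%) of transcripts had a gap inside an annotated exon that is no annotated intron, and in the genes with 1 annotated exon other than Olig1 8 of 302 had one (2.65%, 1.35% to 5.14%). For the 5 genes it was 6 of 69 (8.70%, 4.05% to 17.7%), the Olig2 pair counted as 2.

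The 2 Sox10 transcripts were the shortest of the 69. The gene (ENSMUSG00000033006.10) lies on the minus strand at chr15:79154908-79165240. The transcripts were 126 bp in Oligo1-1 and 245 bp in Oligo5-1, began at chr15:79155051 and chr15:79155169 and ended at chr15:79154926 and chr15:79154925, 13 and 12 bp upstream of the nearest annotated end. They lie in the 3′ untranslated region of the last exon and give no splice junction.

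The Tcf7l2 gene (ENSMUSG00000024985.19) spans 191835 bp at chr19:55741820-55933654, plus strand, with 22 annotated transcripts of up to 15 exons. Its 8 transcripts were of 2 kinds, 4 each: 1 kind began in the first exon and ended in exon 3 or 4, and the other lay wholly in the last exon. No transcript joined the 2 parts. The exons between them, which hold the domain that binds DNA and the alternative exons near the 3′ end, were therefore not covered. Of 8 annotated internal exon forms that some transcripts across the region leave out, 1 could be assessed.

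The 4 transcripts of the first kind came from 3 cells and began within 9 bp of each other. Those of Oligo1-2 and VLMC-2 began at chr19:55742288 and chr19:55742296, and both of Oligo1-1 at chr19:55742297. These starts lie 19 to 28 bp downstream of the nearest annotated start and 54 to 45 bp upstream of the start codon. The 4 were grouped because they begin in the first exon, so their closeness is not set against the starts of Olig1. The 4 transcripts of the last exon began at chr19:55932114, 55932350, 55932690 and 55933176. The 10 bases that the starts of the first kind span are in capitals here, in chr19:55742278-55742307 of the plus strand:
Tcf7l2 starts: tttttttttgCTTTTTTTCCtccttcattt
All 10 bases of that span are C or T, and of the 19 bases before it, back to the annotated start, 18 are T, so that the other strand is rich in A there. The strand given for each of 34928 transcripts with a matched gene was that of the gene, so the strand in the data is no separate evidence of the direction of these 4 molecules. The transcripts had 4 reads in Oligo1-2, 4 in VLMC-2 and 1 each in Oligo1-1.

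All 4 joined exon 1 to exon 2 and exon 2 to exon 3 as annotated. Those of Oligo1-2 and Oligo1-1 ended inside exon 3, at chr19:55743124, 55743147 and 55743151, and were 362, 376 and 380 bp long. That of VLMC-2 went on to exon 4, ended there at chr19:55817824 and was 488 bp long. All 4 hold the start codon and between 308 and 442 of the 1377 coding bases of the annotated model with 15 exons. None of these ends is an annotated end, none has AATAAA or ATTAAA in the 40 bases before it, and the 20 bases after it in the spliced model hold 3, 3, 4 and 3 A in the order of the positions given. The reads kept by the authors had to carry a run of A at this end, and the source of that run in these transcripts was not tested.

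In VLMC-2 the transcript joined exon 3 to an exon at chr19:55817764-55817865 and passed over an alternative exon of 69 bp at chr19:55755014-55755082. That alternative exon is in 4 of the 16 annotated transcripts that span it. VLMC-2 gave the 1 transcript of 8 that could show it, so 0 of 1 included it, with 4 reads. The junction found and the annotated junction to the skipped exon differ as follows, with exon 3 in lower case and the next exon in capitals:
Tcf7l2 junction found: cccaccgcccgaaccTATCTTCAGATGAAA
Tcf7l2 junction to the skipped exon: cccaccgcccgaaccCTCCATTTTCAATCC
The oligodendrocyte transcripts ended before this junction, so nothing can be said of the alternative exon in the oligodendrocytes.

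The 4 transcripts of the last exon gave 3 end sites. The transcript of 1304 bp in Oligo1-1 ended at chr19:55933653, 1 bp before the outermost annotated end. Both of Oligo1-2 ended at chr19:55933223 and chr19:55933228, 6 and 1 bp before a second annotated end, and the transcript of 273 bp in VLMC-2 ended at chr19:55933448, 195 bp from the nearest annotated end. The sequences before the ends show a poly(A) signal, in capitals, for the outer and the VLMC-2 end but not for the inner one:
Oligo1-1, end chr19:55933653: tctggattAATAAAagcaacttagtatgtg
VLMC-2, end chr19:55933448: gttttctctggtttATTAAAatgctaacta
Oligo1-2, end chr19:55933228: aaaatcctgtatattagattactcttaaat
The 20 bases after the inner end are gaaaaagaaaaaaagaaaaa, with 17 A, while those after the VLMC-2 end hold 3 A. The transcript that ended at chr19:55933228 also lacked 192 bp within the exon, chr19:55932660-55932851. Each of these ends rests on 1 or 2 transcripts of 1 cell, and end use between cells cannot be compared.

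**Figure D4:**
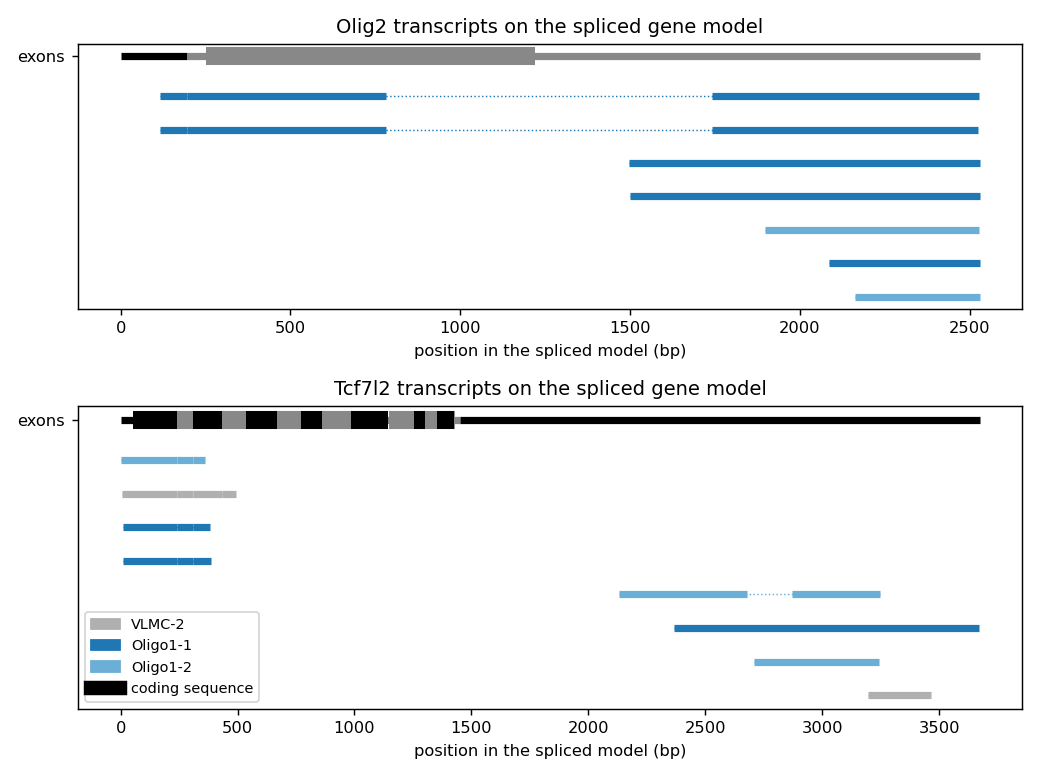
Each line is 1 transcript of Olig2 (top, 7 transcripts) or Tcf7l2 (bottom, 8 transcripts), drawn on the spliced gene model in bp and coloured by cell, with exons in alternating black and grey, coding sequence thick and gaps dotted. The 2 Olig2 transcripts that begin in exon 1 share a gap of 958 bp, and no Tcf7l2 transcript covers the middle of the coding sequence.

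Of the 69 transcripts 58 reached an annotated first exon (84.1%, 73.7% to 90.9%), but 52 of these are Olig1, which has no other exon. For the 3 genes found that have several exons it was 6 of 17 (35.3%, 17.3% to 58.7%). An annotated end was reached within 20 bp by 64 of 69 (92.8%, 84.1% to 96.9%), against 58.7% (58.2% to 59.2%) over all transcripts with a matched gene, and the 5 that did not reach one were all of Tcf7l2. Here too Olig1 gave 52 of the 64, and for the genes with several exons it was 12 of 17 (70.6%, 46.9% to 86.7%), an interval that holds the share over all genes. None of the 69 held a complete coding sequence, which allows up to 5.27% by the Wilson interval. With ends within 5 bp joined the transcripts had 9 end sites, 6 of Tcf7l2 and 1 each of Olig1, Olig2 and Sox10.

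Of a list of 33 names of other transcription factors of the lineage, 19 had transcripts, 16 in oligodendrocytes and 9 there alone. The latter are 47.4% of the 19, against 65.3% of all genes and 43.3% of the 1064 genes with 7 or more transcripts. The background thus depends on the number of transcripts, and the list is not set apart by this share. Tcf4, a basic helix-loop-helix partner of the Olig proteins, had 49 transcripts and was in all 6 cells, with 12 and 8 in the Oligo1 cells, 9 and 4 in the Oligo5 cells and 2 and 14 in the VLMCs. Zeb2, a zinc finger factor of differentiation, had 18, with 8, 1, 4 and 3 in these oligodendrocytes and 2 in VLMC-2. Hes1, a Notch target, had 12, of which 10 were in VLMC-1, and Chd8, a chromatin remodeler, had 10. Myrf, the partner of Sox10 at myelin genes, had 1 transcript in Oligo1-2 and 2 in Oligo5-1. The relatives of the 5 genes were nearly absent: of 13 names Sox8 had 3 transcripts, 1 each in Oligo1-1, Oligo1-2 and Oligo5-1, Lef1 had 2 and Bhlhe22 1.

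Of 22 Wnt pathway partners of Tcf7l2, 11 had transcripts, 10 in oligodendrocytes and 6 in VLMCs. Ctnnb1, which encodes β-catenin, had 13 transcripts: 2 and 7 in the VLMCs and 2 each in Oligo1-1 and Oligo5-1. Gsk3b and Csnk1a1, kinases that mark β-catenin for degradation, had 8 each, 7 and 5 of them in oligodendrocytes. Tle1, a corepressor of Tcf proteins, and Apc, a scaffold of the degradation complex, had 6 each. The whole list took its largest shares, 0.320% and 0.171%, in VLMC-2 and VLMC-1, from 15 and 4 transcripts, and no intervals were computed for these shares. In the Oligo1 cells it took 0.105% and 0.116% and in the Oligo5 cells 0.170% and 0.0483%. In oligodendrocytes alone were 5 of the 11, or 45.5%, against 65.3% of all genes and 43.3% of those with 7 or more transcripts.

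Of 18 names of transcription factors of mesenchymal cells 10 had transcripts, 9 of them in the VLMCs alone, a pattern that 13.5% of all 6357 genes had. Tbx18, a T-box factor of mural and meningeal cells, had 9 and 9 transcripts in VLMC-1 and VLMC-2 and Nr2f2, an orphan nuclear receptor, 7 and 6, while both had 0 in each oligodendrocyte. Foxc1 and Zic1, factors of the meninges, had 4 each. The tenth gene, Foxp1, had 4 transcripts in Oligo5-2, a factor that neurons express too.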

How the data were processed

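STRT/C1 cDNA of 6 single cells was sequenced on PacBio. The deposited values are counts of reads behind each transcript, not normalized, beside block positions on mm10 (GRCm38). Per the study's methods, the authors required a run of A, trimmed poly-A and the template switching GGG, aligned with GMAP (GSNAP in the submitters' processing notes), kept unique alignments, joined nearby blocks and merged reads with the same UMI. Poly-A trimming can shift an end by its last A bases.

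The 5 genes and the gene lists were chosen with earlier results of these data known. Genes were matched by name to GENCODE M21. Block starts count from 0, so 1 was added. 356 transcripts assigned to overlapping genes were left out, none of them naming the 5 genes. Ends within 5 bp were joined into sites, and ends within 20 bp of an annotated end were taken as annotated. No test was made. Joining of sites, merging of UMIs and the coverage of the intervals were tested on simulated data. The other steps were not. Named genes were the 5, the 3 most like Olig1 by cosine (10 or more transcripts were needed) and up to 4 per list with the most transcripts. Apc, tied with Tle1, was named besides. Myrf, Foxp1, Lef1 and Bhlhe22 were named after their values were seen. So were the cell type markers Apod, Pdgfra, Cspg4, Gpr17, Slc1a2, Slc1a3 and Aldoc. Alternatives were other read, run, UMI and tolerance limits and leaving out each cell. The tools were matplotlib 3.10.9, numpy 2.4.6, pandas 2.3.3, scipy 1.17.1 and Python 3.11.15.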

Additional observations from a re-analysis of the deposited data

How the results depend on the processing

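The share of the 5 genes in the 4 oligodendrocytes, 0.226%, was 0.0663% in transcripts with a read of the long run and 0.299% in those with a read of the short run. Leaving out each oligodendrocyte gave 0.176% to 0.282%, the lowest without Oligo1-1, which held 26 of the 52 Olig1 and 5 of the 7 Olig2 transcripts, so that 26 and 2 remained. Without either Oligo1 cell 3 of 6 Tcf7l2 transcripts in oligodendrocytes remained, and without Oligo1-1 or Oligo5-1 1 of 2 of Sox10. Read 2 or more times were 14 Olig1, 3 Olig2, 1 Sox10 and 2 Tcf7l2 transcripts of the oligodendrocytes. With UMIs that differ by 1 base merged, Olig1 had 45 transcripts, and with merging limited to pairs with like ends, an alternative chosen after seeing the data, 50. Transcripts with a read of the long run all reached a first exon: 100% of 9, of which 6 were Olig1 with its single exon, and 100% of 3 for the genes with several exons. For the latter it was 57.1% of the 7 read 2 or more times, against 35.3%. Leaving out each cell gave 82.4% to 85.1%, and 25.0% to 41.7% for the latter, whose alternatives were chosen after seeing the data. The share at an annotated end was 91.2% to 95.5% without each cell. With every end position distinct the 9 end sites were 22. The 2 runs read cDNA of the same cells, so their shares can be set side by side by cell, but no paired test was made.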
